A study of Rattus norvegicus with 12 samples.

Results

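The potassium channel genes of the rat lung were taken as all probe sets whose symbol in the platform annotation starts with Kcn. These were 126 of the 31042 probe sets of the array, for 75 genes. A probe set entered the tests when 3 or more of the 12 lungs had a log2 value of 4 or above, and 21 of the 126 probe sets, for 18 genes, passed this filter. This is 16.7% of the potassium channel probe sets, against 53.3% of all probe sets. The measurements came from whole lungs of male Sprague-Dawley rats, 3 rats in each of 4 groups and 1 Affymetrix rat genome array per lung. Heart failure (CHF) was produced in juvenile rats by a clip around the aorta just above the coronary arteries, and sham rats had the operation without the clip. The 4 groups were sham with placebo, CHF with placebo, sham with ketotifen and CHF with ketotifen, and all lungs were taken 9 weeks after surgery. Ketotifen, a mast cell stabilizer, was given in the drinking water at 1 mg per kg per day from day 1, and the series' design text calls the CHF rats without it untreated where the sample labels say placebo. Banding raises pressure behind the left heart, and the series asks what mast cells contribute to the pulmonary hypertension that follows.

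Potassium channels set the membrane potential of the smooth muscle of pulmonary arteries. When they open, potassium leaves the cell, the membrane becomes more negative, voltage-gated calcium channels stay shut and the muscle relaxes, and when they close or are lost the muscle depolarizes, takes up calcium and contracts. Voltage-gated alpha subunits (Kv) form the pores that open on depolarization, silent subunits join them without forming a working pore alone, and auxiliary subunits (Kcne, Kcnab, Kcnip) change their gating and their delivery to the membrane. Inward rectifiers (Kir), including the ATP-sensitive channels, and the 2-pore-domain channels carry current at rest. Calcium-activated channels open when calcium rises. In pulmonary arterial hypertension, loss of function of Kcnk3 and lower Kcna5 in arterial muscle are well known. The same gene family is also used by airway and alveolar epithelium, nerve, heart muscle and leukocytes, all of which a whole lung can hold.

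All 12 arrays showed lung tissue: the mean log2 level of the alveolar type 2 cell markers lay between 12.78 and 13.91 and that of the alveolar type 1 cell markers between 11.27 and 13.18. Several lungs stood apart. Sham placebo lungs 2 and 3 and sham ketotifen lung 2 had beta-actin signals 3.90 to 4.52 higher at the 3' than at the 5' end, against 2.90 to 3.45 in the other lungs, a sign of shorter RNA. Heart muscle genes (10 in the list, 6 kept, with Actn2, Nppa, Myh7 and Myom2 not kept) averaged 6.75 on the log2 scale in sham placebo lung 3, 4.97 in sham ketotifen lung 1 and 7.73 in sham ketotifen lung 2, against 2.63 to 2.91 elsewhere. Smooth muscle markers (10 of 10 kept) averaged 10.47 in sham placebo lung 2 and 8.21 to 9.16 in the others. The cytokine gene Il6 lay between 10.58 and 11.23 in the CHF ketotifen lungs, at 5.73 in CHF placebo lung 1 and at 2.48 to 2.56 in the remaining 8 lungs. CHF ketotifen lungs 1 and 3 were the most alike pair of arrays (SD of their differences 0.258, next pair 0.397). Leaving out the 3 lungs of shorter RNA leaves 1 sham placebo lung, and leaving out the 3 with heart muscle genes leaves 1 sham ketotifen lung, so in those fits the lone lung is assumed to vary like the lungs of the other groups. In whole lung, fewer cells of a type and less RNA per cell cannot be told apart.

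Most potassium channel genes had no probe set above the floor. Of the 105 probe sets not kept, 98 were under 4 in all 12 lungs, 5 reached it in 1 lung and 2 in 2 lungs, and 57 genes had no probe set kept. By family, 5 of 24 genes of the voltage-gated alpha subunits were kept (Kcnd3, Kcnq1, Kcnq5, Kcnh2 and Kcnh3), 1 of 7 of the silent subunits (Kcns3) and 6 of 11 of the auxiliary subunits (Kcne2, Kcne3, Kcne4, Kcnab1, Kcnab2 and Kcnip3). Of the inward rectifiers 1 of 15 genes was kept (Kcnj15), of the 2-pore-domain channels 3 of 11 (Kcnk1, Kcnk2 and Kcnk6), and of the calcium- and sodium-activated channels 2 of 7 (Kcnmb4 and Kcnn1). The family with the highest share of genes kept was thus that of the auxiliary subunits, and no member of the Kcna group of pore-forming subunits was among those kept. Of the 21 probe sets kept, 13 were at or above 4 in all 12 lungs. Just inside the filter lay Kcnh2, which reached 4 in 3 lungs of 3 groups, and Kcnmb4, which reached it only in the 3 sham placebo lungs. Just outside lay Kcnj8, at or above 4 in CHF ketotifen lungs 1 and 3, and Kcnk3, at or above 4 in sham placebo lung 2 and sham ketotifen lung 2.

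**Figure D1:**
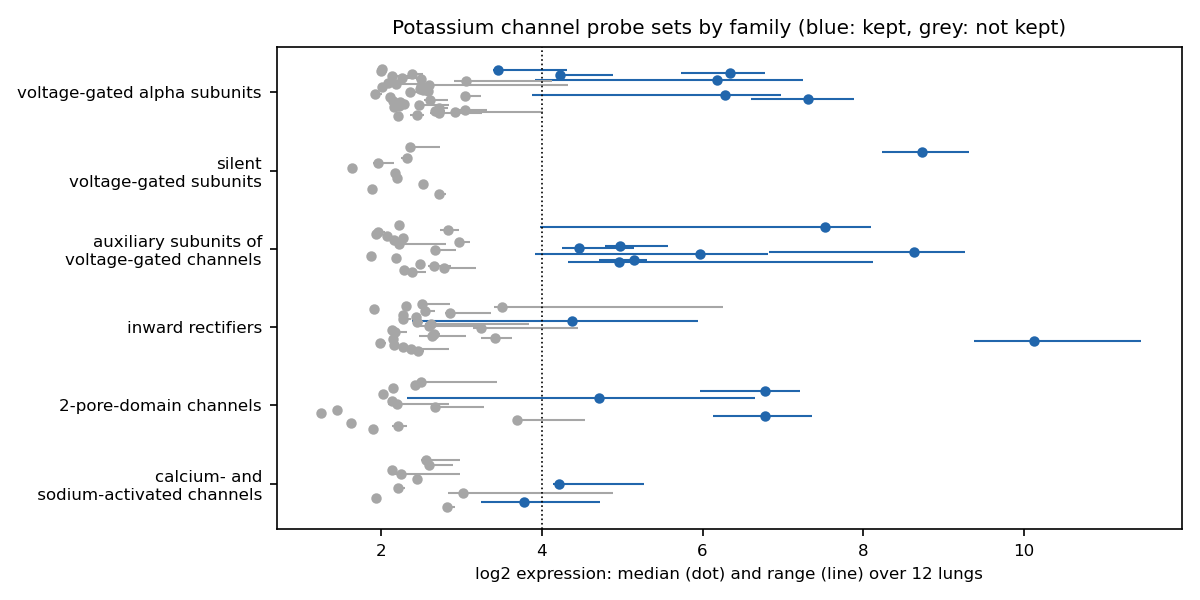
Median (dot) and range (line) of the log2 expression of each of the 126 potassium channel probe sets over the 12 lungs, by family, with the 21 kept probe sets in blue and the others in grey. The dotted line marks the floor of 4. Most grey probe sets lie wholly to its left, and the auxiliary subunits hold 7 of the blue ones.

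Differences were tested in 1 limma fit of all 12 lungs, and calls were made under 0.05 after Benjamini-Hochberg adjustment across all 16536 kept probe sets. Errors of differences are the standard errors of this fit, errors of group means are SDs with n = 3, and every adjusted p is from this fit. In CHF against sham rats with placebo, 0 of the 21 probe sets were called, where 0.169% of all probe sets were, and 6 had an unadjusted p under 0.05, where 20.1% of all did. One of the 6 was Kcnmb4, which passed the filter only through the sham placebo lungs and so had to be higher there. With ketotifen against placebo in CHF rats 1 was called, Kcne4, higher (1.22% of all probe sets called, 0.822% higher). In CHF against sham rats with ketotifen 2 were called, Kcne4 higher and Kcnk2 lower (13.0% of all, 6.36% higher and 6.61% lower). Ketotifen against placebo in sham rats gave 0 calls (0.0847% of all) and 6 unadjusted p under 0.05, Kcnmb4 again among them (14.0% of all). The interaction, the surgery effect with ketotifen minus that with placebo, was called for 1, Kcne4, in the positive direction (0.369% of all, 0.254% positive). For the average surgery effect over both treatments 3 were called, Kcne4 and Kcnq5 higher and Kcnk2 lower (21.0% of all, 11.0% higher and 9.92% lower). The shares of members, 9.52% for surgery with ketotifen and 14.3% for the average surgery effect, were 2 and 3 of 21 and near those of all probe sets. For the drug in CHF rats and for the interaction the share was 4.76%, above that of all, but this is 1 probe set, Kcne4. The median difference of the 21 probe sets lay between -0.06 and 0.08 in the 6 comparisons, and that of all probe sets between -0.04 and 0.02. The comparisons share groups of lungs and are not independent of each other.

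**Figure D2:**
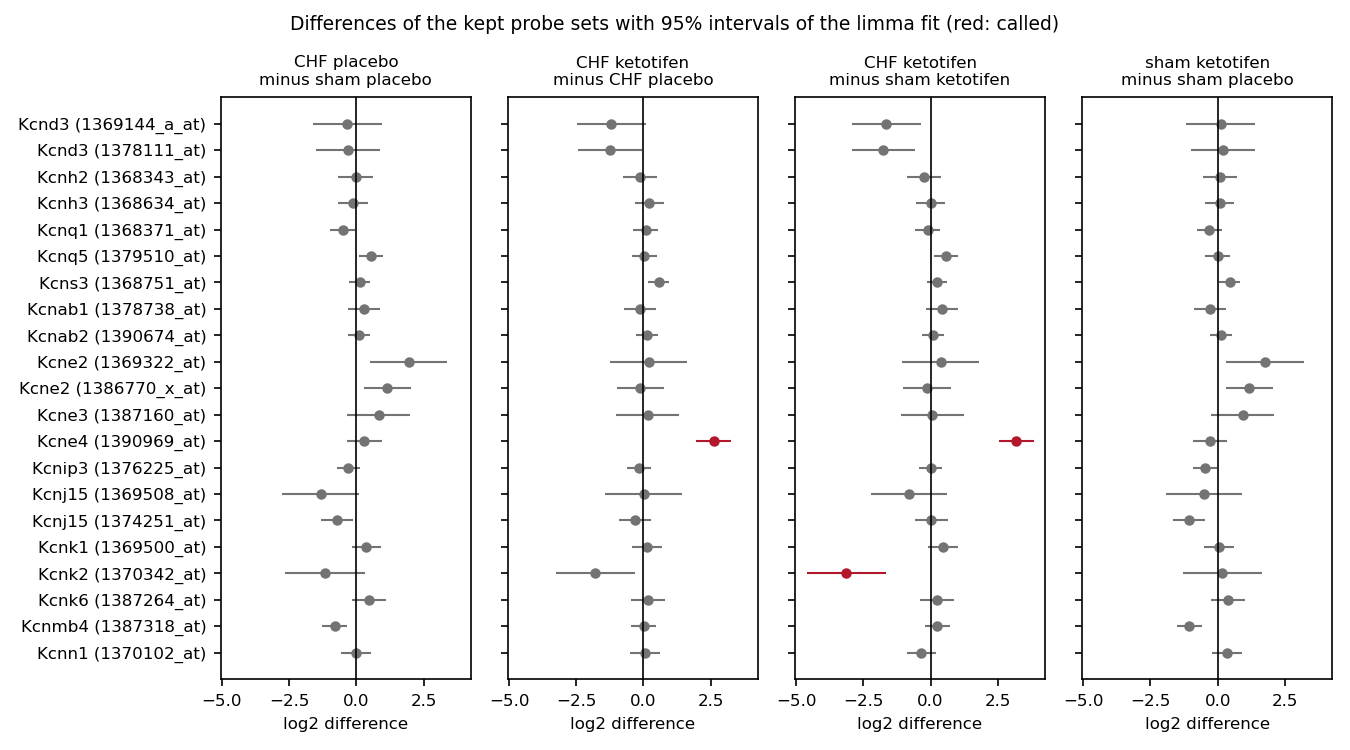
Log2 difference (dot) and its 95% interval (line) for the 21 kept probe sets in 4 comparisons of 3 against 3 lungs, with called probe sets in red. Kcne4 is red in both comparisons that hold the CHF ketotifen lungs, Kcnk2 is red against sham ketotifen, and most other intervals include 0.

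The 3 called genes were an auxiliary subunit, a 2-pore-domain channel and a voltage-gated alpha subunit. Kcne4, whose protein binds and mostly inhibits voltage-gated channels such as Kcnq1 and the Kcna group, was higher in CHF rats given ketotifen than in sham rats given ketotifen and in CHF rats given placebo. Kcnk2, the mechanically and lipid-gated background channel known as TREK, was lower in CHF than in sham rats given ketotifen and in the average surgery effect, but its difference from CHF rats given placebo was not called. Kcnq5, a pore-forming subunit of the Kv7 family that also works in pulmonary artery muscle, was modestly higher in CHF rats in the average surgery effect, and not called within either treatment.

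The bases around the start of the genes that were called higher are printed to show what lies in front of them, from 250 bases before the start to 50 after it, 5′ to 3′ on the strand of the gene, from RefSeq on the rat assembly GRCr8. Capitals mark matches to short motifs searched on both strands, the TATA box TATAAA, the repeat TATATA, the E-box CACGTG, the hypoxia response core ACGTG (which lies inside the E-box), the AP-1 motif TGANTCA, the cAMP response core TGACG, the GC box GGGCGG, the NF-kappaB motif and the CArG box. The window of Kcne4 is chr9:87695798-87696097 on the plus strand, and that of Kcnq5 is chr9:31891232-31891531 on the minus strand.
Kcne4: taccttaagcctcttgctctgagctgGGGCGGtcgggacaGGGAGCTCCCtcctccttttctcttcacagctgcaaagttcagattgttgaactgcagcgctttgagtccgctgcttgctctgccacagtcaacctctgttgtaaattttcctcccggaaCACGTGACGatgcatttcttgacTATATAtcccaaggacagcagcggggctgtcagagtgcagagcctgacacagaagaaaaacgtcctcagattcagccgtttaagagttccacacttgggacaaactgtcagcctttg
Kcnq5: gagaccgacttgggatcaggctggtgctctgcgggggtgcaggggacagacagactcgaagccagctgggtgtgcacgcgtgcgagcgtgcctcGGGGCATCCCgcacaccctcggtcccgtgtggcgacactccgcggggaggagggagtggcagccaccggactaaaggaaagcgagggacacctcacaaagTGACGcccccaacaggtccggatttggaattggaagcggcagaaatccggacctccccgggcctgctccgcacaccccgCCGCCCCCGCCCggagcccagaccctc
The Kcne4 window held a GC box at -224 from the start, an NF-kappaB match (GGGAGCTCCC) at -210, an E-box at -90 with the hypoxia core inside it, a cAMP core overlapping its last bases at -86, and TATATA at -67. Of all 33469 promoter windows of this length, 33.06% held the GC box, 7.51% the NF-kappaB motif, 6.42% the E-box, 19.25% the hypoxia core, 21.2% the cAMP core and 6.15% TATATA. The Kcnq5 window held an NF-kappaB match (GGGGCATCCC) at -156, a cAMP core at -56 and GC boxes at 23 and 29 bases after the start. It had 68.3% G and C and 26 CpG dinucleotides, against 51.3% and 10 in the Kcne4 window, where the median over all windows was 51.7% G and C. Kcnk2 has 2 starts in the table, with 44.3% and 41.7% G and C, and neither window held any of these letters. Across the family, 52 of the 75 genes had a window in the table, 11 of them genes kept, and the matches are a description of letters only.

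Kcne4 was measured by a single probe set that was above the floor in all 12 lungs. Its log2 values were 4.79, 5.26 and 4.83 in sham placebo lungs 1 to 3, 5.92, 4.98 and 4.87 in CHF placebo lungs, 4.33, 4.94 and 4.77 in sham ketotifen lungs, and 8.13, 7.56 and 7.91 in CHF ketotifen lungs. The 3 CHF ketotifen lungs lay above all 9 others, and among the others the highest value was that of CHF placebo lung 1. Group means were 4.96 ± 0.26, 5.26 ± 0.58, 4.68 ± 0.32 and 7.87 ± 0.29 in the same order. With ketotifen against placebo in CHF rats Kcne4 rose by 2.61 ± 0.29 on the log2 scale, 6.10-fold (95% interval 1.96 to 3.25, adjusted p = 0.00139). Against sham rats with ketotifen it rose by 3.19 ± 0.29, 9.10-fold (adjusted p = 0.000277). In CHF against sham rats with placebo the difference was 0.30 ± 0.29 (95% interval -0.35 to 0.94, adjusted p = 0.606), and in sham rats ketotifen against placebo gave -0.28 ± 0.29 (adjusted p = 0.703). The surgery effect thus differed between the treatments, by 2.89 ± 0.42 (95% interval 1.98 to 3.80, adjusted p = 0.0174). The average surgery effect, 1.74 ± 0.21 (adjusted p = 0.00187), rested on the ketotifen rats.

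The drug difference of Kcne4 in CHF rats was called under each of 18 alternatives, with values between 2.41 and 2.94. The interaction was called under 15 of 23: it was lost with CHF ketotifen lungs 1 and 3 averaged (2.81, adjusted p = 0.057), without the 3 lungs of shorter RNA (2.85, 0.267), without the 3 lungs with heart muscle genes (2.87, 0.461) and, singly, without sham placebo lung 3, CHF placebo lung 2, sham ketotifen lung 1, or lung 1 or 3 of the CHF ketotifen group (2.72 to 2.96, adjusted p 0.0525 to 0.0776). Without the 3 lungs with heart muscle genes, the surgery difference with ketotifen, now against 1 sham lung, was 3.10 (adjusted p = 0.0573) and the average was 1.66 (0.0692). Other measures moved with Kcne4. Il6 was highest in the same 3 lungs and next in CHF placebo lung 1, and the macrophage list (5 of 6 genes kept) averaged 9.50 to 9.69 in CHF ketotifen lungs, 8.14 to 9.42 in CHF placebo, 7.60 to 7.85 in sham ketotifen and 6.13 to 7.73 in sham placebo lungs. The endothelial list (8 of 9 genes kept) was at 10.24 to 10.66 in CHF ketotifen lungs, 10.44 in CHF placebo lung 1 and 11.1 to 11.42 in the others. In CHF against sham rats with ketotifen, 5 of its 8 genes were called lower and 1 higher (6.61% and 6.36% of all probe sets). The part of Il6 and of these lists in the Kcne4 result was not tested.

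Kcnk2 was measured by a probe set above the floor in 8 lungs and by another that stayed between 1.21 and 1.27 in all 12. The former read 4.56, 4.73 and 6.65 in sham placebo lungs, 2.70, 5.03 and 4.71 in CHF placebo lungs, 5.52, 6.24 and 4.71 in sham ketotifen lungs and 2.35, 2.39 and 2.32 in CHF ketotifen lungs. All 3 CHF ketotifen lungs lay below every other lung, and CHF placebo lung 1, at 2.70, was next to them. Group means were 5.31 ± 1.16, 4.15 ± 1.26, 5.49 ± 0.77 and 2.35 ± 0.04. Kcnk2 fell by 3.14 ± 0.67 in CHF against sham rats with ketotifen (8.80-fold lower, adjusted p = 0.0164) and by 2.15 ± 0.47 in the average surgery effect (4.44-fold lower, adjusted p = 0.0134). With placebo the surgery difference was -1.16 ± 0.67 (adjusted p = 0.357), and the interaction was -1.97 ± 0.95 (adjusted p = 0.484), so that a difference between the treatments was not shown. Ketotifen against placebo in CHF rats gave -1.80 ± 0.67 (adjusted p = 0.204), although the groups did not overlap, as 15.5% of all probe sets did not in that direction. The low values sit where this normalization flattens, so the size of the fold is uncertain.

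Several marker lists moved with Kcnk2, and their part in the result was not tested. The lowest 4 lungs, the CHF ketotifen lungs and CHF placebo lung 1, were also the 4 lowest for the endothelial list (10.24 to 10.66) and the 4 highest for the macrophage list (9.42 to 9.69). The lungs with high heart muscle genes, sham placebo lung 3 and sham ketotifen lungs 1 and 2, were also the 3 with the highest Kcnk2, from 5.52 to 6.65. In the other lungs the heart muscle list lay between 2.63 and 2.91, and Kcnk2 between 2.32 and 5.03. Without the 3 lungs with heart muscle genes, sham ketotifen lung 3 is alone in its group. The surgery difference with ketotifen was then -2.36 and the average surgery effect -1.43, neither called. The ketotifen result did not pass when sham ketotifen lung 2 (-2.76, adjusted p = 0.0539) or, in turn, lung 2 of the CHF ketotifen group (-3.16, 0.0523) was left out, nor did the average surgery effect without the 3 lungs of shorter RNA (-1.59, 0.122). Without those 3 and CHF placebo lung 1 together the average was -1.22 (adjusted p = 0.0379). Without CHF placebo lung 1, ketotifen against placebo in CHF rats gave -2.52 (adjusted p = 0.0331), where calls over all probe sets rose from 201 to 1219.

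Kcnq5 read 7.13, 6.78 and 7.08 in sham placebo lungs, 7.54, 7.64 and 7.45 in CHF placebo lungs, 6.60, 7.30 and 7.08 in sham ketotifen lungs and 7.89, 7.32 and 7.52 in CHF ketotifen lungs. Each CHF lung was above each sham lung of the same treatment, as was so for 6.07% of all probe sets. The average surgery effect was 0.56 ± 0.15 (1.48-fold, adjusted p = 0.0229). The effect was nearly equal with placebo (0.55 ± 0.21, adjusted p = 0.186) and with ketotifen (0.58 ± 0.21, adjusted p = 0.0841), neither called, and the interaction was 0.03 ± 0.29. Ketotifen against placebo gave 0.03 ± 0.21 in CHF rats (95% interval -0.42 to 0.49) and -0.00 ± 0.21 in sham rats (-0.46 to 0.45). Leaving out sham placebo lung 2 (0.51, adjusted p = 0.05002) ended the call, as did leaving out CHF ketotifen lung 1 (0.49, 0.0512). The average effect was also not called without the 3 lungs of shorter RNA (0.58) or without these and CHF placebo lung 1. Nor was it called without the 3 lungs with heart muscle genes (0.54). Both other Kcnq5 probe sets were not kept, one under 4 in all 12 lungs and one in 11.

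**Figure D3:**
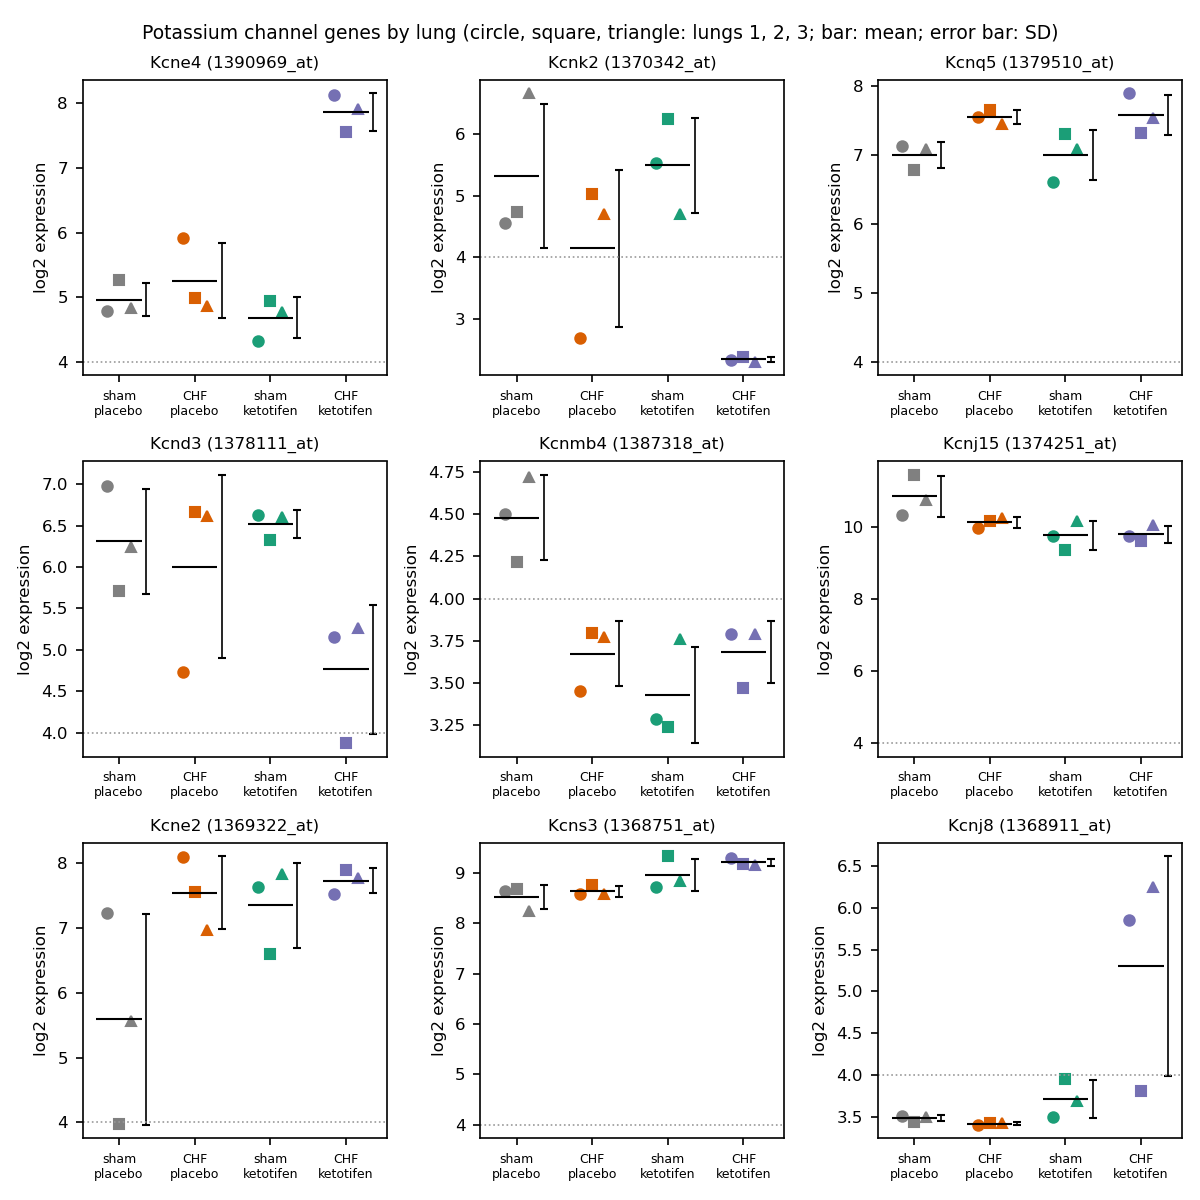
Log2 expression of 9 potassium channel probe sets in each lung (circle, square and triangle for lungs 1, 2 and 3), with the group mean (bar) and SD (error bar), n = 3 a group. The dotted line is the floor of 4. The CHF ketotifen lungs stand above all others for Kcne4 and below all others for Kcnk2, and for Kcnq5 the CHF lungs stand above the sham lungs of the same treatment.

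Among the other voltage-gated alpha subunits, Kcnd3, a pore of the fast transient current, had 2 kept probe sets that gave like values. The first read 6.97, 5.72 and 6.24 in sham placebo lungs, 4.73, 6.67 and 6.62 in CHF placebo lungs, 6.63, 6.32 and 6.60 in sham ketotifen lungs and 5.16, 3.87 and 5.27 in CHF ketotifen lungs. The CHF ketotifen lungs lay below both sham groups (20.8% of all probe sets were lower without overlap with ketotifen), and CHF placebo lung 1 lay among them. The surgery difference with ketotifen was -1.75 ± 0.54 (adjusted p = 0.0546) and with the other probe set -1.64 ± 0.58 (0.0833), both short of the threshold. Against placebo in CHF rats it was -1.24 ± 0.54 (adjusted p = 0.271), and without CHF placebo lung 1 it was -1.88 (0.0319). Without that lung, calls over all probe sets rose from 201 to 1219. Kcnq1, the pore of the slow delayed rectifier that Kcne subunits modify, was 6.63 ± 0.13 in sham placebo, 6.12 ± 0.33 in CHF placebo, 6.31 ± 0.23 in sham ketotifen and 6.20 ± 0.27 in CHF ketotifen lungs. Its surgery difference with placebo was -0.51 ± 0.21 (adjusted p = 0.217), with no overlap of the 3 and 3 lungs (10.7% of all probe sets lower without overlap). Kcnh2 and Kcnh3, of the ether-a-go-go family, had group means of 3.50 to 3.74 and 4.23 to 4.44, near the floor, and no unadjusted p under 0.05.

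Kcns3, a silent subunit of voltage-gated channels, read 8.63, 8.67 and 8.24 in sham placebo lungs and 8.57, 8.76 and 8.57 in CHF placebo lungs. In ketotifen lungs it read 8.72, 9.32 and 8.83 after sham surgery and 9.29, 9.17 and 9.15 after banding. The ketotifen lungs thus lay above the placebo lungs of the same surgery, without overlap. The differences were 0.57 ± 0.17 in CHF rats (adjusted p = 0.131) and 0.44 ± 0.17 in sham rats (adjusted p = 0.308), neither called, where 9.86% and 7.50% of all probe sets were higher without overlap.

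Of the auxiliary subunits, Kcne2, which modifies Kcnq1 and Kcnh2, had the largest positive surgery difference with placebo. Its first kept probe set read 7.23, 3.98 and 5.56 in sham placebo lungs, 8.09, 7.54 and 6.97 in CHF placebo lungs, 7.62, 6.60 and 7.82 in sham ketotifen lungs and 7.52, 7.89 and 7.76 in CHF ketotifen lungs. Sham placebo lungs 2 and 3 were the only lungs under 6, and lung 1 of that group lay within the other groups. The surgery difference with placebo was 1.95 ± 0.65 (adjusted p = 0.155), and 1.15 ± 0.40 (0.163) for the second kept probe set. Ketotifen against placebo in sham rats gave 1.76 ± 0.65 (adjusted p = 0.299) and 1.18 ± 0.40 (0.280). The size of this difference rests on sham placebo lungs 2 and 3, both among the 3 lungs of shorter RNA. Without all 3, which leaves sham placebo lung 1 alone in its group, the surgery difference with placebo was 0.31. Without sham placebo lung 1 it was 2.77 (adjusted p = 0.0116), where calls over all probe sets rose from 28 to 1496. Sham placebo lung 2 was also the lowest lung for the alveolar type 1 list (11.27) and the highest for the ciliated cell list (8.49, against 4.13 to 7.22), and their part in this difference was not tested.

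The remaining auxiliary subunits did not pass the test in any comparison. Kcne3, which holds Kcnq1 open in epithelium, was 5.11 ± 1.03 in sham placebo, 5.94 ± 0.14 in CHF placebo, 6.04 ± 0.09 in sham ketotifen and 6.10 ± 1.06 in CHF ketotifen lungs. Its surgery difference with placebo, 0.83 ± 0.53 (adjusted p = 0.406), came with no overlap (12.7% of all probe sets higher without overlap), and sham placebo lung 2, at 3.92, was the lowest of the 12 lungs. The beta subunit Kcnab1 was 4.87 ± 0.38 in CHF and 4.60 ± 0.47 in sham lungs with placebo, and 4.76 ± 0.28 and 4.32 ± 0.06 with ketotifen, where the groups did not overlap (0.44 ± 0.27, adjusted p = 0.288, with 19.2% of all probe sets higher without overlap). Kcnab2 had means of 4.99 to 5.21. Kcnip3, a calcium-binding partner of the Kcnd channels, was 5.39 ± 0.19 in sham placebo and 4.93 ± 0.10 in sham ketotifen lungs (-0.46 ± 0.20, adjusted p = 0.337).

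Kcnj15, an inward rectifier of epithelium, was the one Kir gene kept. Its first probe set read 10.35, 11.46 and 10.77 in sham placebo lungs, 9.98, 10.17 and 10.26 in CHF placebo lungs, 9.77, 9.38 and 10.19 in sham ketotifen lungs and 9.75, 9.61 and 10.07 in CHF ketotifen lungs. The sham placebo lungs were the 3 highest of the 12. The surgery difference with placebo was -0.72 ± 0.27 (adjusted p = 0.186) and the drug difference in sham rats -1.08 ± 0.27 (adjusted p = 0.187), both without overlap (10.7% and 8.87% of all probe sets) and neither called. The second kept probe set of Kcnj15 gave -1.33 ± 0.65 and -0.51 ± 0.65 in these comparisons, both with overlap. Without the 3 lungs of shorter RNA the first value, now against sham placebo lung 1 alone, was -0.22. Without sham placebo lung 1 it was -0.98 (adjusted p = 0.0457) and the second -1.33 (0.0248). Calls over all probe sets then rose from 28 to 1496 for the first comparison and from 14 to 722 for the second.

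The other 2-pore-domain channels were Kcnk1 and Kcnk6, both weakly conducting background channels. Kcnk1 was 6.44 ± 0.44 and 6.82 ± 0.09 in sham and CHF lungs with placebo and 6.49 ± 0.40 and 6.95 ± 0.23 with ketotifen, an average surgery effect of 0.42 ± 0.18 (adjusted p = 0.111). Kcnk6 was 6.45 ± 0.51 and 6.92 ± 0.39 with placebo and 6.82 ± 0.27 and 7.08 ± 0.27 with ketotifen, an average of 0.36 ± 0.20 (adjusted p = 0.211). Both had higher means in CHF lungs, while Kcnk2 had lower ones.

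Of the calcium-activated group, Kcnmb4, an accessory subunit of the large-conductance channel Kcnma1, read 4.50, 4.22 and 4.72 in sham placebo lungs and 3.24 to 3.80 in the 9 others. It passed the filter only through the sham placebo lungs, so these had to be higher. The surgery difference with placebo was -0.81 ± 0.21 (adjusted p = 0.114) and the drug difference in sham rats -1.05 ± 0.21 (adjusted p = 0.105), neither called. Kcnn1, a small-conductance channel known from nerve, stayed between 4.14 and 4.24 in 11 lungs and read 5.27 in sham ketotifen lung 1.

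Several channels best known from pulmonary vessels were not measurable as kept probe sets. Kcna1, Kcna2, Kcnj2, Kcnj11, Kcnmb1, Kcnn3 and Kcnn4 were under 4 in all 12 lungs with each of their probe sets. Kcna5, the oxygen-sensitive pore of arterial muscle, read 4.33 in sham placebo lung 2 and 2.54 to 2.93 elsewhere. The Kcnma1 probe set of highest signal read 4.89 in the same lung and 2.83 to 3.62 elsewhere. That of Kcnk3 read 4.54 there, 4.26 in sham ketotifen lung 2 and 3.63 to 3.71 elsewhere. The other probe sets of these genes reached at most 2.98 and 1.93, with their highest values in other lungs. By the probe set of highest signal, sham placebo lung 2 was thus highest for all 3 genes. It was also highest for the smooth muscle list (10.47) and the ciliated cell list (8.49). Its beta-actin 3' minus 5' difference was 4.23 and that of sham ketotifen lung 2 was 4.52, the largest of the 12 lungs. Sham ketotifen lung 2 was at 9 for the smooth muscle list. The part of RNA length and of smooth muscle or ciliated cell content in these genes was not tested. Values at this level carry little information on change, so a difference in these channels was not detectable with these arrays.

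Kcnj8, the pore of the vascular ATP-sensitive channel, fell just short of the filter. It read 3.51, 3.44 and 3.50 in sham placebo lungs, 3.41, 3.43 and 3.43 in CHF placebo lungs, 3.50, 3.95 and 3.69 in sham ketotifen lungs and 5.85, 3.81 and 6.25 in CHF ketotifen lungs. CHF ketotifen lungs 1 and 3, the most alike pair of arrays, were high, and lung 2 of that group was not. In a fit without the filter, ketotifen against placebo in CHF rats gave 1.88 ± 0.49 (adjusted p = 0.164). In that fit 1 of the 105 probe sets not kept was called, Kcnk9 in CHF against sham rats with ketotifen, with a difference of 0.04 (adjusted p = 0.0389), where 1156 of all 31042 probe sets were called. Kcnk9 lay between 2.11 and 2.17 in all 12 lungs, in the flattened range.

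Genes that act with potassium channels on the membrane potential and calcium of the muscle were listed as partners: the sulfonylurea receptors, voltage-gated calcium channels, cation and chloride channels, sodium pumps and exchangers, calcium stores and gap junctions. Of 41 genes 37 were on the array and 28 were tested. In CHF against sham rats with placebo, in both drug comparisons and for the interaction, 0 were called. In CHF against sham rats with ketotifen 1 rose and 1 fell (13.0% of all probe sets called), and in the average surgery effect 3 rose and 3 fell (21.0% of all called), a share of the 28 near that of all probe sets. The median difference over the 28 genes was -0.10 for the average surgery effect, with -0.02 over all probe sets.

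The gap junction gene Gjc1, which couples muscle cells electrically, read 6.95, 6.92 and 7.15 in sham placebo lungs, 8.66, 7.72 and 7.15 in CHF placebo lungs, 7.00, 7.34 and 7.38 in sham ketotifen lungs and 8.88, 8.47 and 8.85 in CHF ketotifen lungs. The average surgery effect was 1.17 ± 0.22 (adjusted p = 0.00766) and that with ketotifen 1.50 ± 0.31 (0.0146), and both were lost without the 3 lungs of shorter RNA (1.22, 0.0864 and 1.55, 0.0572) and without the 3 with heart muscle genes (1.13, 0.115 and 1.36, 0.259). As with Kcne4, the CHF ketotifen lungs and CHF placebo lung 1 were the 4 highest. Orai1, the pore of store-operated calcium entry, rose by 0.72 ± 0.17 (adjusted p = 0.0186) in the average surgery effect, and Gja1, the widespread gap junction gene, by 0.47 ± 0.14 (0.0369). Ano1, the calcium-activated chloride channel that depolarizes arterial muscle, was lower: it read 7.78, 8.95 and 8.32 in sham placebo lungs, 7.35, 7.07 and 6.94 in CHF placebo lungs, 7.36, 7.57 and 7.74 in sham ketotifen lungs and 7.07, 7.04 and 7.25 in CHF ketotifen lungs. Its average surgery effect was -0.83 ± 0.18 (adjusted p = 0.0120), and with placebo it was -1.23 ± 0.25 (0.0797). Trpm4, a calcium-activated cation channel, fell by 0.50 ± 0.12 on average (adjusted p = 0.0183) and by 0.75 ± 0.17 with ketotifen (0.0207), and the chloride transporter Clcn3 by 0.32 ± 0.10 on average (0.0398). The average effects of Orai1, Ano1 and Trpm4 were called without any 1 lung. They were not called without the lungs of shorter RNA (with Ano1 at -0.55) or without these and CHF placebo lung 1. Nor were they called without the lungs with heart muscle genes. Gja1 and Clcn3 were called under 9 of 23 alternatives, with Gja1 as low as 0.29, and Trpm4 with ketotifen under 12 of 18, with 4 of 6 lungs ending that call when left out. Ano1 is also expressed in airway epithelium. The ciliated cell list was at 4.76 to 8.49 in sham placebo and 4.13 to 5.13 in CHF placebo lungs. With ketotifen it was at 5.18 to 5.69 in sham and 4.37 to 4.66 in CHF lungs. The club cell list was at 8.78 to 12.21 and 7.34 to 9.5 with placebo, and at 8.5 to 11.18 and 6.46 to 7.44 with ketotifen. Both lists thus overlapped between sham and CHF lungs with placebo but not with ketotifen. In sham placebo lungs 1 to 3 the ciliated cell list was at 4.76, 8.49 and 7.22 and the club cell list at 8.78, 11.79 and 12.21. Lung 1 was the lowest of these 3 for both lists, as for Ano1. In the average surgery effect 4 of 5 club cell and 3 of 7 ciliated cell genes were called lower, where 9.92% of all probe sets were. The part of these lists in the Ano1 result was not tested.

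**Figure D4:**
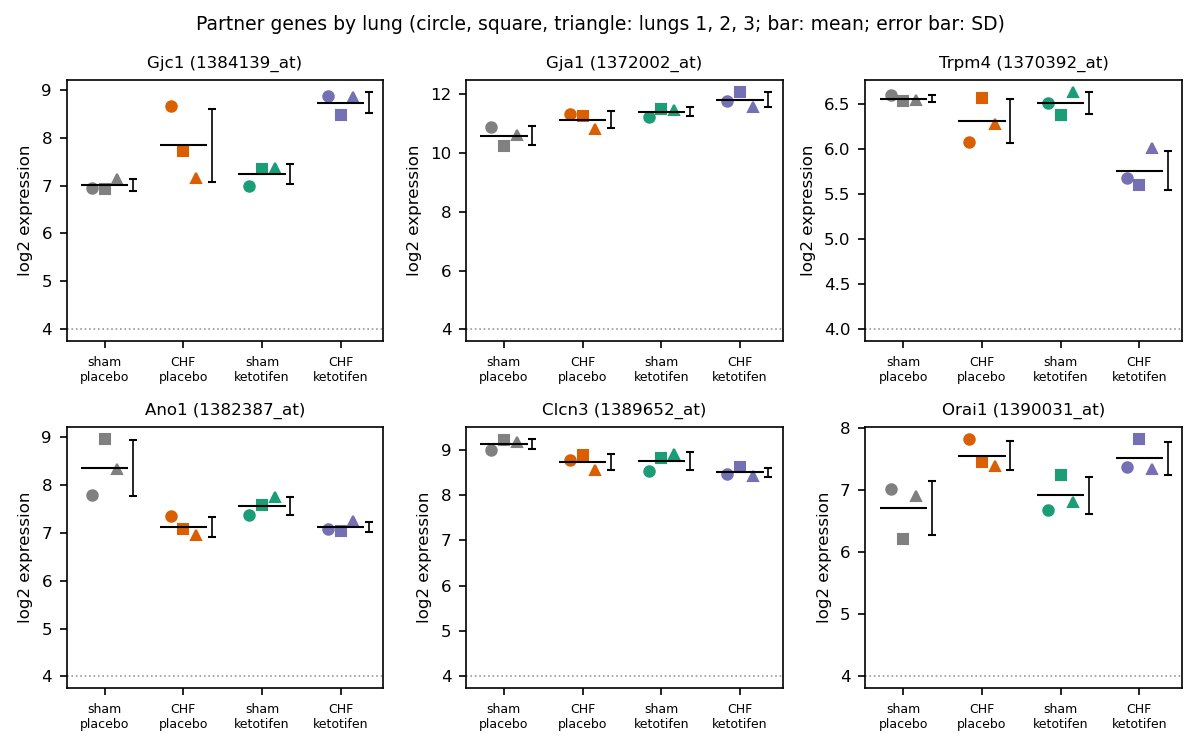
Log2 expression of the 6 partner genes called in any comparison, in each lung (circle, square and triangle for lungs 1, 2 and 3), with the group mean (bar) and SD (error bar), n = 3 a group. Gjc1, Gja1 and Orai1 have higher means in CHF than in sham lungs of the same treatment, and Ano1, Trpm4 and Clcn3 have lower ones.

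The partners of smallest p that were not called included the receptor channel Trpc6, with 1.90 ± 0.53 for ketotifen against placebo in CHF rats (adjusted p = 0.107), and the pump subunit Atp1b1, with -0.98 in sham rats (adjusted p = 0.195). The L-type calcium channel pore Cacna1c, the main path of calcium entry on depolarization, had an average surgery effect of -0.54 ± 0.18 (adjusted p = 0.052). Abcc9, the vascular sulfonylurea receptor that pairs with Kcnj8, was -0.77 ± 0.24 in CHF against sham rats with placebo (adjusted p = 0.134), -0.16 ± 0.24 with ketotifen (0.667) and -0.79 ± 0.24 for ketotifen in sham rats (0.234), with the sham placebo lungs the 3 highest. Neither passed the test.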

How the data were processed

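RNA of 12 whole rat lungs was measured on 1 array each, and groups follow the source names in the labels. The deposited values are log2 expression per probe set. The submitters' processing notes name GCRMA and R 2.5.0, and other settings were not given in the sources used here. GCRMA corrects for probe base content and flattens values near background. Symbols came from the platform annotation, and all 126 Kcn probe sets matched RefSeq by Entrez identifier. The 57 control probe sets were left out. Kept probe sets (log2 of at least 4 on at least 3 arrays) entered limma 3.58.1 (R 4.3.3): 4 group means, 8 residual degrees of freedom, eBayes with intensity trend, two-sided, Benjamini-Hochberg over 16536 probe sets, called under 0.05. The script was tested on simulated data. Marker levels are the mean log2 over a list's genes on the array, kept or not, and partner genes take 1 probe set each.

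The members, lists and rules were chosen with earlier results of these data known. Named were called probe sets, the 3 largest positive and negative differences without overlap per comparison, and channels known from pulmonary vessels. Of the partners, the called genes and some of the 2 smallest p per comparison are named, with Cacna1c and Abcc9 added after their values were seen. Alternatives were other filters, normalizations, weights (limma arrayWeights, gene by gene, because the default estimate did not converge), a replicate block, averaging, and leaving out lungs. Separate rats are the replicates. With 3 arrays a group, their number limits the precision. No batch labels were used.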

Additional observations from a re-analysis of the deposited data

Results flagged for a closer look

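The surgery difference of Kcne4 differed between the treatments by 2.89 on the log2 scale (SE 0.42, adjusted p = 0.0174 in the limma fit). It was 3.19 with ketotifen, where 3 of 3 CHF lungs lay above 3 of 3 sham lungs, and 0.30 with placebo, where the groups overlapped. The interaction was called under 15 of 23 alternatives, among them 7 of the 12 fits that left out 1 lung. It was not called with CHF ketotifen lungs 1 and 3 averaged. Nor was it called without the lungs of shorter RNA or without those with heart muscle genes.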

How the results depend on the processing

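Numbers of called potassium channel probe sets are given in this order: surgery with placebo, drug in CHF rats, surgery with ketotifen, drug in sham rats, interaction and average surgery effect. As reported they were 0, 1, 2, 0, 1 and 3. Array weights raised all 6, to 5, 5, 5, 4, 2 and 6, and raised those over all probe sets to 3236, 4134, 4139, 702, 1132 and 6069. The replicate block left them at 0, 1, 2, 0, 1 and 3 and changed no call. Same-numbered lungs correlated at -0.347 to 0.263, 5 of 18 pairs were over 0.1, and 3 lungs correlated best with their own number. No pairing by number was evident, and with 3 lungs a group these correlations cannot exclude one. Leaving out 1 lung gave 0 to 3 (3 without sham placebo lung 1), 1 to 3 (3 without CHF placebo lung 1), 1 to 2, 0 to 4 (4 without sham placebo lung 1), 0 to 1 and 2 to 4. Over all probe sets, calls without sham placebo lung 1 rose from 28 to 1496 for surgery with placebo. They rose from 14 to 722 for the drug in sham rats and from 3467 to 4299 for the average. Calls without CHF placebo lung 1 rose from 201 to 1219 for the drug in CHF rats. Without the 3 lungs with heart muscle genes, which leaves 1 sham ketotifen lung, 0 were called for surgery with ketotifen, 0 for the interaction and 0 for the average (43, 3 and 60 over all probe sets). Without the 3 lungs of shorter RNA, which leaves 1 sham placebo lung, 0 were called for the interaction and 1 for the average (2 and 197 over all probe sets, against 61 and 3467). Averaging CHF ketotifen lungs 1 and 3 left 0 for the interaction (28 over all), and averaging the probe sets of a gene left 1 for surgery with ketotifen and 1 for the average (1327 and 2137 over all genes). For surgery with ketotifen, quantile normalization gave 4 and a fit of those 6 lungs alone gave 4, with 2259 and 2404 of all probe sets called against 2145 as reported. Without CHF placebo lung 1 and the lungs of shorter RNA, an alternative chosen after seeing the data, ketotifen against placebo in CHF gave 5 (1707 over all, against 201). Some settings use fewer lungs, and the cause of the other changes was not tested. Fits of the compared groups alone could not be made for the interaction and the average. Counting each named difference once under each alternative, 2331 values kept their direction and side of the threshold, 185 uncalled values changed sign, 39 became called, 67 lost the call and 0 called values reversed. Signal over background limits what can be seen, since 98 of 126 probe sets never reached the floor.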

Other observations

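Sham ketotifen lung 1 held the highest value of several potassium channel probe sets near the floor. It was the highest of the 12 lungs for Kcnn1 (5.27), Kcnh3 (4.89) and Kcnh2 (4.31), and the only one at or above 4 for the probe set of Kcnd3 that was not kept (4.12) and for one of the Kcnq5 probe sets that were not kept (4.01). Kcnj12, an inward rectifier of heart muscle, read 4.45 in sham ketotifen lung 2 and 3.95 in sham ketotifen lung 1, and 3.14 to 3.46 in the other lungs. Both lungs were among the 3 with high heart muscle genes, while sham placebo lung 3, the other of these, read 3.22. Kcnn3, a small-conductance calcium-activated channel of endothelium, read 2.89 to 2.97 in CHF ketotifen lungs and 2.49 to 2.83 in the other lungs, all under the floor.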
